A study of Mus musculus with 12 samples.

Results

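The heat shock, DNAJ and CCT chaperones are the gene families that fold newly made proteins and refold damaged ones. Members were chosen by symbol. They are the genes named for the Hsp90, Hsp70, small heat shock, DNAJA, DNAJB, DNAJC, CCT (with Tcp1) and prefoldin families, together with Hspd1, Hspe1 and Hsph1. Genes of these families under other names, such as Vbp1 of prefoldin, were left out by this rule. Of the 24561 genes in the count table, 86 matched. Of these, 71 passed edgeR's filter on low counts and were tested. The remaining 15 never exceeded 10 counts in a library, and 5 of them (Hspb1, Hspb2, Hspb7, Cct8l1 and Dnajc5b) had 0 counts in every library.

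Messenger RNA was measured in follicular helper T (Tfh) cells, which help B cells in the follicle, at day 3 after NP-OVA immunization. All cells came from OT-II T cells, which carry a transgenic receptor for ovalbumin, on a C57BL/6 background with Cd4-cre, whose promoter drives Cre in T cells. In the group labelled wild-type the cells carried Cd4-cre alone, and in the group labelled BCL6-insufficient they carried Cd4-cre and Bcl6 fl/+, so that a copy of Bcl6 can be deleted. Cells of either genotype were transferred into CD45.1 SAP-deficient recipients, which were immunized with NP-OVA plus LPS in alum, and CXCR5hiPD-1hi cells were sorted from the draining lymph nodes. Each of 3 recipients per label gave 2 technical repeats of about 200 cells, or 12 libraries. The mice below are these recipients. The sources used here do not say how many donors supplied the cells of a label or how old the mice were, so the p-values measure the spread between recipients, which may share a donor.

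Library totals ranged from 3343375 to 8315722 counts, of which the 86 chaperone genes took between 0.985% and 1.28%. Values are normalized CPM, counts scaled to a common library size with TMM factors, with the repeats of a mouse summed. The targeted gene went against its label: Bcl6 averaged 149 ± 2.18 CPM under the BCL6-insufficient label and 62.4 ± 11.5 under the wild-type label (SD, n = 3 mice each; log2 fold change 1.25 with SE 0.12 and adjusted p = 6.3e-07). Reads over the whole gene do not separate a deleted copy from an intact one, and groups are therefore named by their labels. The T cell and Tfh markers were detected in every library. Of the 6 Tfh markers, Icos was called higher beside Bcl6 (log2 fold change 0.64, adjusted p = 0.000147), and Cxcr5 and Pdcd1, which encode the proteins used for the sort, were called lower (log2 fold changes -0.40 and -0.42, adjusted p = 0.00476 and 0.0042). Summed over 6 T cell markers, the level was 9548 ± 504 CPM under the BCL6-insufficient label and 7636 ± 759.7 under the wild-type label (SD, n = 3 each). The difference was that of Trac (7009 and 4771 CPM), while Lck and Cd4 were called lower (log2 fold changes -0.33 and -0.34, adjusted p = 0.0121 and 0.0446), so the list had no common direction. The 10 B cell markers summed to between 468 and 773 CPM in the libraries labelled BCL6-insufficient and between 590.4 and 974 in those labelled wild-type. Most of that was Ighm, while Ms4a1 and Pax5 each averaged under 1 CPM. Mouse 2 labelled BCL6-insufficient and mouse 3 labelled wild-type stood apart in other B cell markers, with Cd74 at 52.3 and 37.8 CPM against 4.22 to 11.4 in the remaining mice, and with Cd79a, Cd79b and Igkc highest in the same pair. The 7 myeloid markers of the table summed to between 13.7 and 40.9 CPM against 5.99 to 14.4 in single libraries, with Cd14 at 0 throughout. By mouse the sums were 28.5, 24.3 and 15.6 CPM against 7.42, 10.9 and 10.7, without overlap. Of the 3 tested, Lyz2 was called higher (log2 fold change 2.64, adjusted p = 0.00531), at 16.5, 3.67 and 3.19 CPM against 0.0916, 2.04 and 1.58. DESeq2 called Csf1r higher instead. The 16 proliferation genes summed to 6855 ± 31.2 against 6315 ± 48.7 CPM (SD, n = 3 each). That sum was raised by Mki67, Top2a and Cenpe, and 11 of the 16 had a log2 fold change below 0 (median -0.07). The part of these other cells and of cell division in the results below was not tested. In bulk samples fewer cells of a type and less RNA per cell cannot be told apart.

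As background, an Hsp70 protein binds exposed stretches of an unfolded protein, a DNAJ protein delivers the client and triggers the ATPase of Hsp70, and Hsp90 takes over late folding of kinases and receptors. Closed rings do another part of the work: CCT, built of paralogous subunits, folds actin and tubulin in the cytosol after prefoldin has handed them over, and Hsp60 with its lid Hsp10 folds proteins inside mitochondria. Heat shock factors induce the cytosolic and mitochondrial sets through heat shock elements, and the unfolded protein response induces the set of the endoplasmic reticulum (ER) through ER stress elements. Lymphocytes that enter the cell cycle after activation make large amounts of protein and rely on these families.

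The promoter sequences below are shown because they carry these elements and because they tie members described later to each other. RefSeq promoter windows of GRCm38.p6 (250 bases before the start site to 50 after it) were matched by symbol for 69 of the 86 members. The heat shock element was searched as GAANNTTCNNGAA on both strands and was found in 4 of the 69 members (5.8%), Dnajb6, Hspd1, Hspe1 and Hsph1, and in 0.662% of all 27025 genes with a window. The ER stress element was searched as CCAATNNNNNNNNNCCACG, which contains the CCAAT box, and was found in 3 of the 69 (4.35%), Dnajc3, Hsp90b1 and Hspa5, and in 0.137% of all genes. Matches are a description of letters and not of bound sites. The stretches are written 5′ to 3′ in the direction of the gene with the element in capitals and 5 bases on each side; for Hsph1 the match lay after the start site and is not shown. Hspe1 and Hspd1 are transcribed away from each other, so their stretches are the same 28 bases, chr1:55088054-55088081, read on opposite strands, and hold 2 overlapping elements. The others are on chr5:29735847-29735869 (plus strand, Dnajb6), chr10:86705528-86705661 (minus strand, Hsp90b1, with 2 elements), chr2:34772020-34772048 (plus strand, Hspa5) and chr14:118937822-118937850 (plus strand, Dnajc3).
Hspe1: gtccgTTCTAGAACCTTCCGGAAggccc
Hspd1: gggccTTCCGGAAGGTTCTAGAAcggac
Dnajb6: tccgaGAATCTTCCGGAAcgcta
Hsp90b1: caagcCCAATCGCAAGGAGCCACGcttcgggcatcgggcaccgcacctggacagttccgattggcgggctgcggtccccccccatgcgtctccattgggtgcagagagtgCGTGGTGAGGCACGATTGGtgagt
Hspa5: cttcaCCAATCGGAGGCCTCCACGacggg
Dnajc3: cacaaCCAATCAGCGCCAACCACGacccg

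The comparison asks which transcripts differ between Tfh cells labelled BCL6-insufficient and Tfh cells labelled wild-type. Among the 71 tested chaperone genes, 8 were higher and 7 were lower with the BCL6-insufficient label at an adjusted p under 0.05 (quasi-likelihood test of edgeR, Benjamini-Hochberg over all 12719 genes tested). That is 21.1% of the members, beside 18.0% of all genes tested. In the higher direction it is 11.3% beside 9.17% of all genes, and in the lower direction 9.86% beside 8.82%. The share of the members was therefore near that of all genes, and their median log2 fold change was 0.03 beside 0.011 over all genes. The mice of the labels did not overlap for 26 of the 71 members (36.6%), beside 34.4% of all genes. By family, the share called was 60% for prefoldin, 33.3% for Hsp90, 25% for DNAJA and 18.2% for DNAJB. It was 16.7% for Hsp70 with Hsp110 and 12.5% each for DNAJC and CCT. Both genes of the mitochondrial chaperonin and no small heat shock protein were called. Most families hold few genes. When trends with GC content and exon length were removed, 7 members were higher and 6 lower, all of them among the 15, beside 16.3% of all genes called. The higher genes were Dnajc15, Pfdn6, Hsp90b1, Hspe1, Pfdn2, Dnajc19, Pfdn1 and Dnajc1, and the lower genes Dnaja2, Hspa9, Cct5, Dnajb2, Hspa2, Hspd1 and Dnajb1. Summed over all 86 genes the level was 11039 ± 646 CPM under the BCL6-insufficient label and 11062 ± 548 under the wild-type label (SD, n = 3 each), so members moved within a total that differed by less than its spread.

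**Figure D1:**
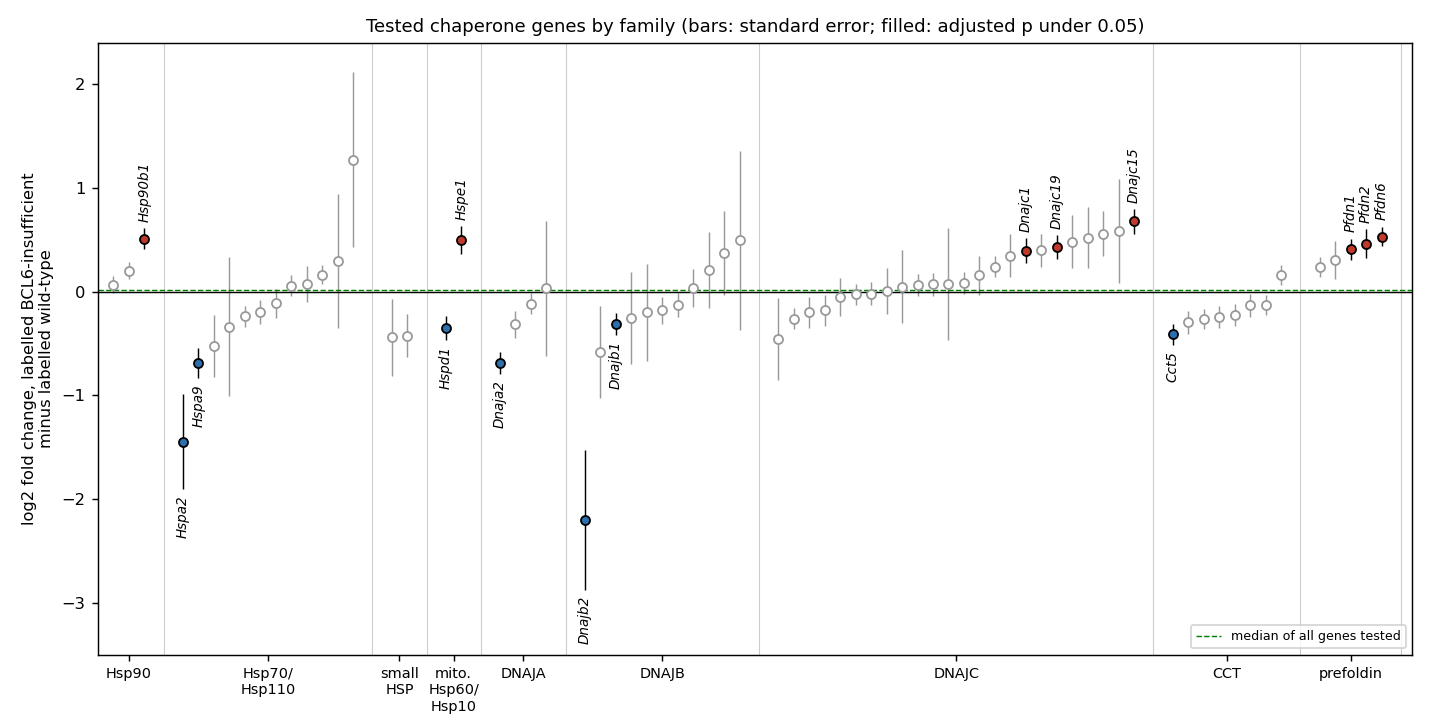
Each point is a tested chaperone gene, grouped by family along the horizontal axis, with its log2 fold change (labelled BCL6-insufficient minus labelled wild-type) and standard error on the vertical axis. Filled, named points are the 8 higher and 7 lower genes. All 5 Pfdn genes lie above 0 and 7 of the 8 CCT genes below it, and the dashed line is the median of all genes tested, 0.011.

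Prefoldin captures unfolded actin and tubulin as they leave the ribosome and carries them to CCT. All 5 tested Pfdn genes had a log2 fold change above 0 and 3 of them, Pfdn6, Pfdn2 and Pfdn1, were called higher, with a median of 0.41 over the 5. Their summed level was 646, 611 and 677 CPM in the 3 mice labelled BCL6-insufficient and 499, 494 and 494 in the 3 labelled wild-type. The latter were nearly equal, and every mouse with the BCL6-insufficient label lay above them.

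Pfdn6, a beta-type subunit of the prefoldin hexamer on chromosome 17, was at 186, 186 and 187 CPM with the BCL6-insufficient label and at 128, 130.1 and 129 with the wild-type label. The spread among mice was far smaller than the gap between labels. Its log2 fold change was 0.53 (SE 0.10 and adjusted p = 0.00046), it was 0.48 in the first technical repeat and 0.53 in the second, and it was called in all 22 alternative fits. Single libraries varied more than these sums, from 154 to 207 CPM and from 108 to 149, without overlap.

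Pfdn1, another beta-type subunit, was at 163, 143 and 172 CPM against 124, 119 and 117, a log2 fold change of 0.41 (SE 0.10 and adjusted p = 0.00781). Pfdn2, also of the beta type, was at 47.9, 45.9 and 50.3 CPM against 34.4, 32.3 and 37.9 (log2 fold change 0.46, SE 0.14 and adjusted p = 0.0235). The labels did not overlap for either gene. The call of Pfdn2 held in only 2 of the 6 fits that left out a mouse (log2 fold changes from 0.40 to 0.52, adjusted p up to 0.107). Of its exon bases, 27.6% lie opposite an exon of Klhdc9. Reads of such overlapping genes cannot be told apart without strand, and the strand setting of the counting is not given in the sources used here.

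Pfdn5, an alpha-type subunit, was at 222, 211 and 236 CPM against 194, 187 and 188, and did not pass the test (log2 fold change 0.24, SE 0.09 and adjusted p = 0.0886). Pfdn4 was at 26.9, 24.5 and 31.8 CPM against 18.6, 26.4 and 22.4 (adjusted p = 0.276), and its mice overlapped. Exons of Myg1 on the same strand hold 11.8% of the exon bases of Pfdn5. For Pfdn4, 28.7% lie opposite exons of Cyp24a1 and Gm16796. The remaining alpha-type subunit is encoded by Vbp1, which the symbol rule does not hold and which is named here after its values were seen. Vbp1 was at 33.5, 30.2 and 30.1 CPM against 39.8, 40.2 and 41.4, below all mice labelled wild-type, with a log2 fold change of -0.37 (SE 0.15 and adjusted p = 0.0803). DESeq2 and limma voom called Vbp1 lower, as did the fit with GC and length trends removed (adjusted p = 0.0104), and DESeq2 also called Pfdn5 higher. The complex as a whole was thus not uniform in direction: 5 subunit genes lay above 0 and Vbp1 below it.

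The CCT chaperonin, the double ring that closes over actin and tubulin, lay mostly on the other side. Of its 8 tested genes, 7 had a log2 fold change below 0, with a median of -0.24, but only Cct5 was called. DESeq2 called 3 lower (Cct3, Cct4 and Cct5) and voom 4 (these and Cct7). Summed CCT level was 1764, 1955 and 2104 CPM with the BCL6-insufficient label and 2052, 2187 and 2435 with the wild-type label. The sums overlapped, since mouse 3 labelled BCL6-insufficient stood above mouse 1 labelled wild-type.

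Cct5, the epsilon subunit, on chromosome 15, was at 252, 286 and 298 CPM against 337, 367 and 409. No mouse overlapped, and the log2 fold change was -0.41 (SE 0.10 and adjusted p = 0.00512), with a call in all 6 fits that left out a mouse. Cct4, the delta subunit, was at 133, 166 and 158 CPM against 171, 181 and 209, and Cct3, the gamma subunit, at 180.0, 181 and 194 against 211, 211 and 245. Neither overlapped between labels and neither passed the test (log2 fold changes -0.30 and -0.27, adjusted p = 0.061 and 0.062).

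The other CCT genes overlapped between labels. Cct7 (eta) had a log2 fold change of -0.24 (adjusted p = 0.108), Cct8 (theta) of -0.23 (adjusted p = 0.133), Cct6a (zeta) of -0.13 (adjusted p = 0.466) and Tcp1 (alpha) of -0.13 (adjusted p = 0.395). Cct2, the beta subunit, was the exception in direction, at 243, 262 and 275 CPM against 217, 244 and 235 (log2 fold change 0.16, adjusted p = 0.259). Exon bases of Tcp1 are shared with Acat3 and Mrpl18 and those of Cct6a with Psph, which leaves these counts uncertain. The testis-type paralogue Cct6b averaged 0.915 and 0.448 CPM and was not tested.

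Per kilobase of exon, which allows genes to be compared, Cct5 had the highest level of the ring at 117 ± 20.7 CPM per kilobase over the 6 mice and Cct3 the lowest at 32.0 ± 3.82 (SD, n = 6). Cct2 at 96.2, Cct8 at 92.2 and Tcp1 at 71.8 came next, each overlapping its neighbour in this order. The first place of Cct5 came from the wild-type label, where it was at 134 ± 13.0 and Cct2 at 90.8 ± 5.33. Under the BCL6-insufficient label the levels were 100.8 ± 8.55 for Cct5 and 102 ± 6.27 for Cct2 (SD, n = 3 each), which differed by less than their spread. Prefoldin genes spanned a wider range, from 148 ± 14.4 for Pfdn5 and 132 ± 26.3 for Pfdn6 down to 9.96 ± 1.77 for Pfdn4 (SD, n = 6). Exon length was the summed length of all annotated exons, so a gene with long minor transcripts is placed too low.

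**Figure D2:**
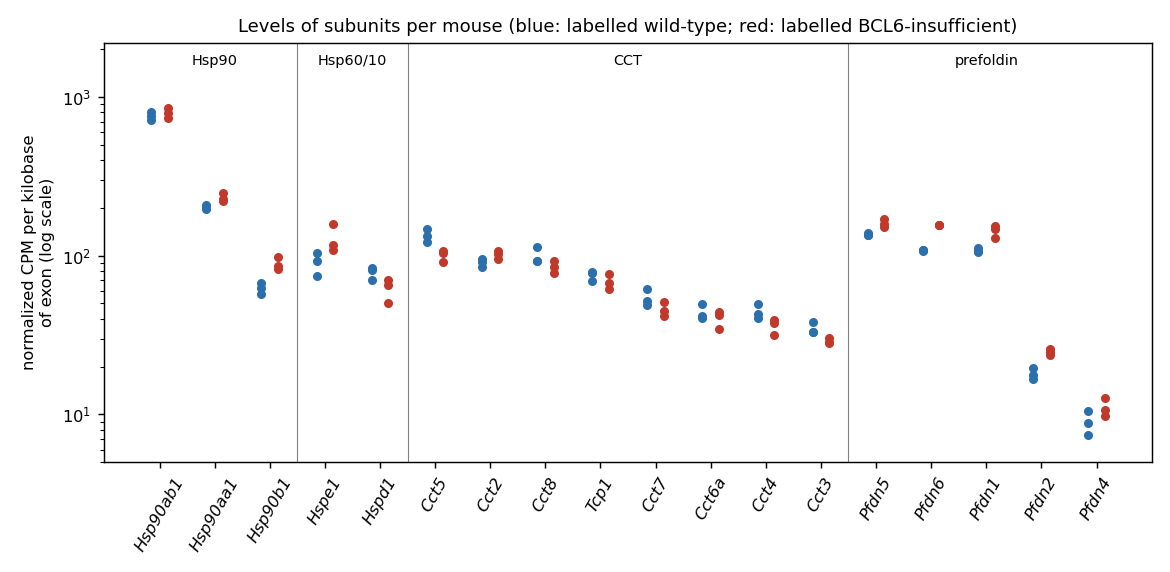
Normalized CPM per kilobase of exon on a log axis for the tested Hsp90, Hsp60/Hsp10, CCT and prefoldin genes, with a point per mouse (blue for labelled wild-type, red for labelled BCL6-insufficient). Hsp90ab1 is highest at 777 on average, the red points of the prefoldin genes lie above or among the blue ones, and those of Cct5 lie below.

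The proteins known to work with CCT and prefoldin were a list of 8 genes outside the symbol rule, which holds Vbp1. All were tested, and 1 was higher and 3 were lower (50% of the list, beside 18.0% of all genes tested). The higher gene was Pdcd5, a binding partner of CCT, with a log2 fold change of 0.55 (adjusted p = 0.000533). The lower ones were Pdrg1 (-0.51, adjusted p = 0.00309), the phosducin-like Pdcl (-0.76, adjusted p = 0.024) and the prefoldin-like Uri1 (-0.49, adjusted p = 0.0463). Pdcl and Uri1 were named after their values were seen.

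Hsp60 (Hspd1) and its lid Hsp10 (Hspe1) form the chaperonin of mitochondria, and in these libraries they parted. Hspe1 was at 159, 172 and 233 CPM with the BCL6-insufficient label and at 109, 137 and 153 with the wild-type label. Hspd1 was at 133, 173 and 184 CPM against 187, 221 and 215. Neither overlapped between labels, and they lay in opposite directions: the log2 fold change was 0.50 for Hspe1 (SE 0.13 and adjusted p = 0.0111) and -0.35 for Hspd1 (SE 0.12 and adjusted p = 0.0383).

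The ratio of Hspe1 to Hspd1 was 1.203, 0.993 and 1.26 in the mice labelled BCL6-insufficient and 0.585, 0.618 and 0.710 in those labelled wild-type. No ratio overlapped, and the mean log2 ratio differed by 0.85. Since neither gene overlapped and they lay in opposite directions, the lack of overlap had to follow and is no separate evidence. The two-sided exact permutation p of 0.1, the lowest possible with 3 mice per label, was fixed in advance for the same reason. The pair was singled out after its values were seen. In single libraries the ratio ran from 0.814 to 1.35 with the BCL6-insufficient label and from 0.536 to 0.789 with the wild-type label. These genes share the stretch with the heat shock elements printed above.

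Both calls rest on part of the libraries. In the first repeat alone the log2 fold change of Hspe1 was 0.24 (adjusted p = 0.453) and that of Hspd1 -0.28 (adjusted p = 0.309), and in the second 0.75 (adjusted p = 0.000266) and -0.41 (adjusted p = 0.0346). Hspe1 was called in 4 of the 6 fits that left out a mouse, and its adjusted p was 0.101 without mouse 3 labelled BCL6-insufficient and 0.093 without mouse 1 labelled wild-type. A single library also ended it, the second repeat of mouse 3 labelled wild-type (adjusted p = 0.134 without it), which held the highest B cell marker sum. Hspd1 was called in 2 of the 6, with an adjusted p up to 0.217 without mouse 1 labelled BCL6-insufficient. The genes share 112 exon bases on opposite strands (7.6% of those of Hspe1), and Hspd1 has a near-identical pseudogene, Hspd1-ps3, with which reads may be exchanged.

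**Figure D3:**
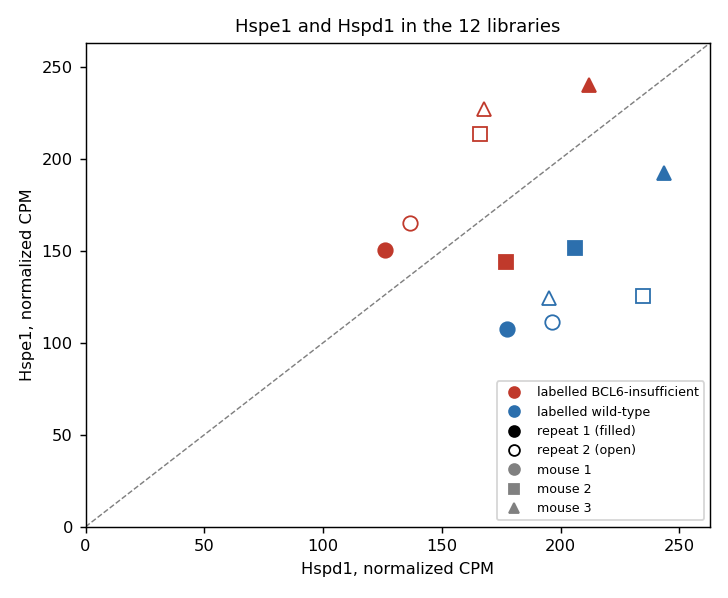
Hspe1 against Hspd1 in normalized CPM for each of the 12 libraries, red for labelled BCL6-insufficient and blue for labelled wild-type, with a symbol per mouse and open symbols for the second repeat. The dashed line marks equal levels; 5 of the 6 red points lie above it, and all 6 blue points lie below it.

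Other mitochondrial chaperones also went both ways. Of the 8 mitochondrial members, 62.5% were called beside 18.0% of all genes tested: 3 were higher (Dnajc15, Hspe1 and Dnajc19) and 2 lower (Hspa9 and Hspd1). Their median log2 fold change was -0.12, and their summed level was 787 ± 115 CPM beside 742 ± 66.7 (SD, n = 3 each), which overlapped.

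Dnajc15, a DNAJ protein of the mitochondrial inner membrane linked to protein import, was at 141, 170.2 and 189 CPM with the BCL6-insufficient label and at 90.5, 104 and 118 with the wild-type label. The lowest mouse of the first stood above the highest of the second. Its log2 fold change of 0.68 (SE 0.12 and adjusted p = 0.000417), a 1.60-fold difference, was the largest rise among the called members. Dnajc19, the DNAJ protein of the import motor, was at 95.1, 104 and 109 CPM against 72.8, 83.4 and 72.1 (log2 fold change 0.43, SE 0.11 and adjusted p = 0.0099). Leaving out mouse 1 or mouse 3 labelled wild-type ended that call (adjusted p up to 0.052).

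Hspa9, the mitochondrial Hsp70 (mortalin) that pulls proteins through the import channel, fell. It was at 53.4, 56.7 and 76.4 CPM against 89.6, 88.2 and 122. Mouse 3 was the highest of either label and no mouse overlapped. The log2 fold change was -0.69 (SE 0.14 and adjusted p = 0.00184), and it was called in all 6 fits that left out a mouse. These 2 called genes of the import motor thus differed in direction, Hspa9 lower and its DNAJ partner Dnajc19 higher. The Hsp70 co-chaperones Grpel1 and Grpel2, listed outside the symbol rule, were not called (log2 fold changes 0.11 and 0.0050, adjusted p = 0.530 and 0.992). The motor as a whole was not tested.

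The ER set had 8 members, of which 2 were higher, Hsp90b1 and Dnajc1, and 0 were lower in edgeR's test (25% called, beside 18.0% of all genes tested). At an unadjusted p under 0.05 none of the 8 was lower either, and of the other tools run DESeq2 and limma voom called no lower one. Their summed level was 1198 ± 65.0 CPM under the BCL6-insufficient label and 1049 ± 6.91 under the wild-type label (SD, n = 3 each), but most of that difference was Hsp90b1: 4 of the 8 had a log2 fold change above 0 and 4 below it, with a median of 0.07. Hsp90b1 (GRP94), the Hsp90 of the ER that folds integrins and Toll-like receptors, was at 397, 349.6 and 331 CPM against 271, 252 and 233. The groups stood apart, with a log2 fold change of 0.51 (SE 0.10 and adjusted p = 0.000829) and a call in all 6 fits that left out a mouse. Of the exon bases of Hsp90b1, 5.38% are shared with other genes on the same strand and 10.3% on the opposite strand.

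Hspa5 (BiP), the Hsp70 of the ER and main target of the unfolded protein response, did not pass the test, at 486, 407 and 461 CPM against 391, 404 and 416 (log2 fold change 0.16, adjusted p = 0.244, approximate 95% interval -0.02 to 0.34). Dnajc3, the inhibitor of the kinase PERK, was at 145, 157 and 164 CPM against 157, 148 and 168 (log2 fold change -0.03, adjusted p = 0.895, interval -0.22 to 0.17). Of the 3 members whose promoters hold an ER stress element, Hsp90b1 alone was therefore called. Dnajb11, a BiP partner and the DNAJB member with the highest level per kilobase, was at 105, 109 and 139.6 CPM against 123, 136 and 127 (adjusted p = 0.487).

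Dnajc1, a membrane DNAJ protein of the ER, was at 67.8, 60.9 and 66.7 CPM against 49.8, 49.2 and 49.6. The labels did not overlap, and the log2 fold change was 0.39 (SE 0.12 and adjusted p = 0.0267). With GC and length trends removed the log2 fold change was 0.34 (adjusted p = 0.0653), and the call held in 1 of the 6 fits that left out a mouse. Without the first repeat of mouse 2 labelled wild-type it was 0.32 (adjusted p = 0.116).

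Among 22 tested ER folding and unfolded protein response genes outside the symbol rule, 5 were higher and 1 was lower (27.3%, beside 18.0% of all genes tested). The 5 were Manf, Sec61b, Calr, Sec63 and Atf4, and the lower gene was Edem1, which helps to clear misfolded glycoproteins. Manf, a secreted ER stress protein, had the smallest p (log2 fold change 0.57, adjusted p = 0.000378), followed by Sec61b, a subunit of the translocation channel (0.39, adjusted p = 0.00493). The others were named after their values were seen. The median of the 22 was 0.16, beside 0.011 over all genes.

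**Figure D4:**
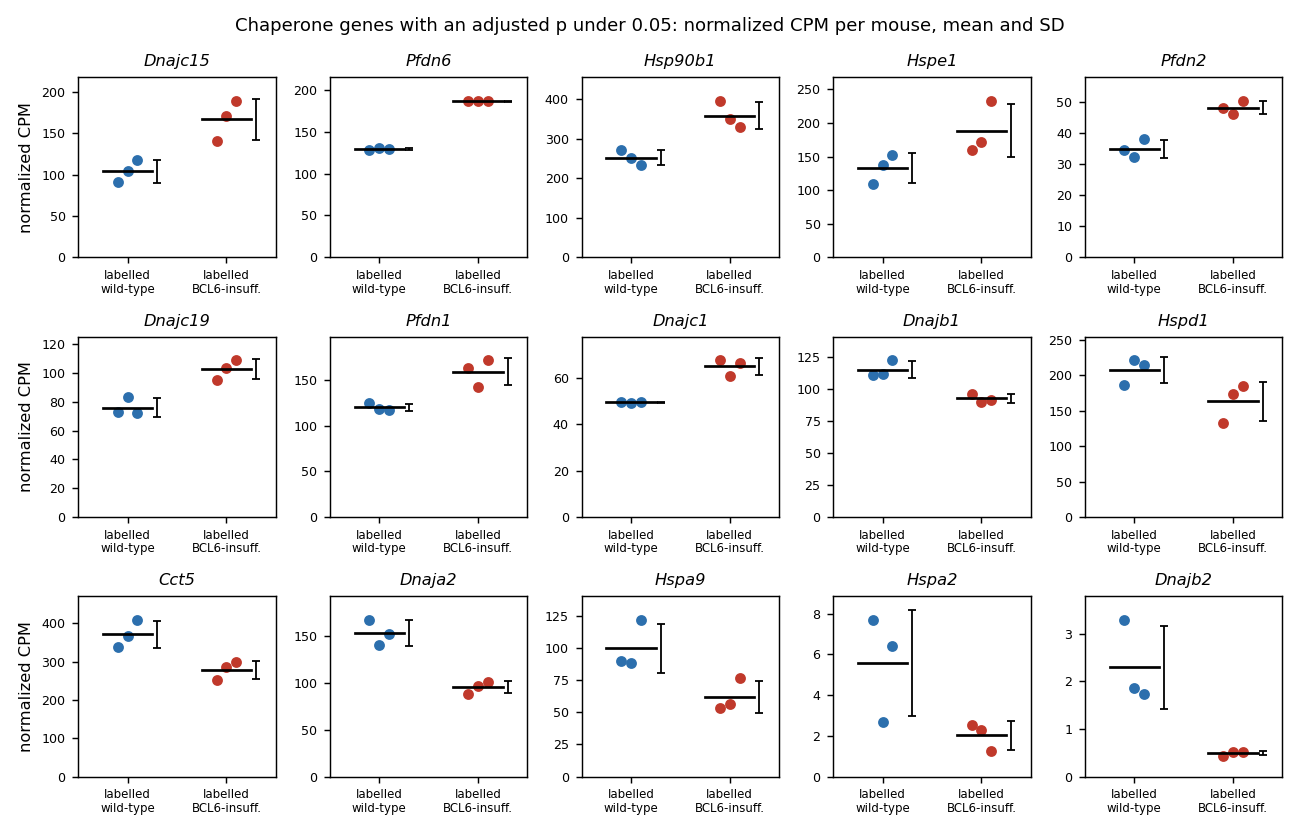
Normalized CPM in each mouse for the 15 chaperone genes with an adjusted p under 0.05, with a panel per gene, a horizontal line at the mean and a bar of 1 SD. In each panel the 3 red points (labelled BCL6-insufficient) and the 3 blue points (labelled wild-type) do not overlap; Hspa2 and Dnajb2 are the panels with levels under 10 CPM.

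The cytosolic Hsp90 genes did not pass the test. Hsp90ab1, the constitutive Hsp90 and the most abundant member per kilobase at 777 ± 49.98 CPM (SD, n = 6), was at 2218, 2384 and 2549 CPM against 2137, 2275 and 2423 (log2 fold change 0.06, adjusted p = 0.645). The mice overlapped, and the approximate 95% interval of the log2 fold change ran from -0.10 to 0.23. Hsp90aa1, the stress-inducible form, was at 894, 873 and 976 CPM against 784, 779 and 819. Its mice did not overlap, but the adjusted p was 0.0997 (log2 fold change 0.20).

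For these 2 genes a library stood apart. The first repeat of mouse 3 labelled BCL6-insufficient, the shallowest library, held 1157 CPM of Hsp90aa1 and 2990 of Hsp90ab1, against at most 915 and 2478 in the other libraries of that label. The log2 fold change of Hsp90aa1 was 0.42 in the first repeat, where it was called (adjusted p = 0.0419), and 0.03 in the second, and that of Hsp90ab1 0.32 and -0.13. Reads of Hsp90aa1 may also be exchanged with 3 near-identical gene copies.

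**Figure D5:**
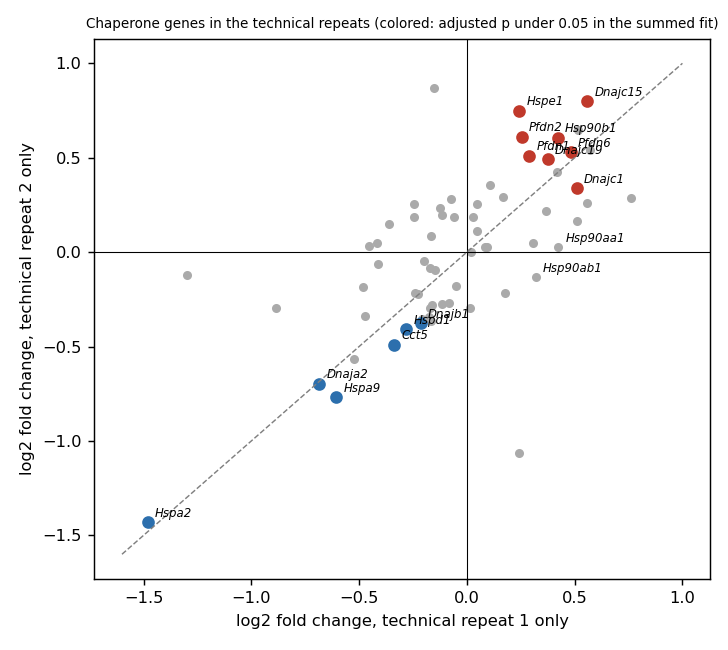
The log2 fold change of each tested chaperone gene from the first technical repeat of every mouse (horizontal) and from the second (vertical), with called genes in color and a dashed line of equality. The 14 called genes with a value in both repeats have the same sign in each, and 15 of all 65 genes plotted change sign. Calls were made on the sum of these repeats of the same mice, which favors a shared sign, so this is no independent support.

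In the Hsp70 family, 2 of 12 tested genes were lower, Hspa9 and Hspa2, and 0 were higher in edgeR's test. None was higher at an unadjusted p under 0.05 or in DESeq2 or limma voom. Hspa8, the constitutive cytosolic Hsp70 and second in level at 339.9 CPM per kilobase, was at 1459, 1057 and 1507 CPM against 1491, 1590.4 and 1666 (log2 fold change -0.24, adjusted p = 0.12). Limma voom called it lower (adjusted p = 0.0251), as did the fit without a filter on low counts (adjusted p = 0.0343) and the fit without mouse 3 labelled BCL6-insufficient (adjusted p = 0.0382). Mouse 2 labelled BCL6-insufficient was low, and without it the log2 fold change was -0.095 (adjusted p = 0.582). The other mice overlapped. The gene has 6 near-identical copies in the annotation and exons shared with small nucleolar RNA genes.

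The classical heat-inducible genes Hspa1a and Hspa1b were at a few CPM at most. Hspa1a was at 3.64, 1.40 and 2.78 CPM against 1.10, 0.444 and 4.73, and Hspa1b at 1.24, 0.612 and 1.34 against 1.01, 0.0889 and 0.225. Reads may be exchanged between these near-identical neighbours, their groups overlapped, and neither passed the test (adjusted p = 0.799 and 0.329). Hsph1, an Hsp110 that exchanges the nucleotide of Hsp70, was at 68.7, 47.1 and 62.4 CPM against 61.0, 59.6 and 71.9 (adjusted p = 0.644). Hspa2, a member best known from male germ cells, was at 2.55, 2.27 and 1.23 CPM against 7.69, 2.67 and 6.38, which did not overlap by a narrow margin. Its log2 fold change of -1.45 (SE 0.46 and adjusted p = 0.0299) rests on few counts and was called in 2 of the 6 fits that left out a mouse.

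Of a list of 14 chaperones of the heat shock response, which also holds the constitutive Hspa8 and Hsp90ab1, 13 were tested, 1 was higher (Hspe1) and 2 were lower (Hspd1 and Dnajb1). That is 23.1% of the tested genes, beside 18.0% of all genes tested. Small heat shock proteins, which hold unfolded proteins without ATP, were nearly silent. Only Hspb11 and Hspb6 of the 6 were tested. Hspb11, in spite of its name a subunit of the ciliary transport machinery, had a log2 fold change of -0.42 (adjusted p = 0.17), and its mice did not overlap.

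DNAJ proteins choose the client and the place of action of Hsp70. The DNAJA genes gave 1 call of 4, and it was the smallest p of all lower members. Dnaja2, a co-chaperone for refolding in the cytosol, was at 87.8, 96.9 and 100.3 CPM against 167, 140.2 and 151. The labels stood far apart, with a log2 fold change of -0.69 (SE 0.11 and adjusted p = 0.000123), or 1.61-fold lower. It was -0.68 in the first repeat and -0.70 in the second, and it was called in 21 of 22 alternative fits, all but log2(TPM + 1) over all genes.

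Its paralogue Dnaja1 did not pass the test, at 217, 177 and 193 CPM against 214, 203 and 219 (log2 fold change -0.12, adjusted p = 0.468). The mice overlapped. Reads of Dnaja1 may be exchanged with several pseudogenes and with the overlapping Smu1.

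Of 11 tested DNAJB genes, 2 were lower, Dnajb1 and Dnajb2, and 0 were higher in edgeR's test. None was higher at an unadjusted p under 0.05 or in DESeq2 or limma voom. Dnajb1 (Hsp40), the inducible partner of Hsp70, was at 96.5, 90.2 and 91.8 CPM against 111, 112 and 123, without overlap. Its log2 fold change was -0.31 (SE 0.10 and adjusted p = 0.0401), but it was called in 0 of the 6 fits that left out a mouse. In those fits the log2 fold change ran from -0.35 to -0.27 (adjusted p from 0.0608 to 0.148). With GC and length trends removed the log2 fold change was -0.22 (adjusted p = 0.167). Dnajb2, a neuronal co-chaperone, was at 0.437, 0.525 and 0.514 CPM against 3.297, 1.87 and 1.73. The call (log2 fold change -2.20, SE 0.67 and adjusted p = 0.025) rests on at most 24 counts in a library and was also lost in all 6, and without the first repeat of mouse 3 labelled BCL6-insufficient (adjusted p = 0.0517). Dnajb6, whose promoter holds a heat shock element, was at 54.6, 49.8 and 63.4 CPM against 65.0, 56.5 and 68.3, which overlapped (adjusted p = 0.377).

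DNAJC genes, the most varied family, had 24 tested members with 3 higher (Dnajc15, Dnajc19 and Dnajc1) and 0 lower in edgeR's test. Dnajc7 was the only 1 lower at an unadjusted p under 0.05, at 126, 115 and 117 CPM against 144, 139 and 147 (log2 fold change -0.26, adjusted p = 0.0757), and DESeq2 and limma voom called it. It was named after its values were seen. Dnajc9, a histone chaperone and the DNAJC gene with the highest level per kilobase, was at 228, 261 and 279 CPM against 215, 249 and 261, which overlapped (adjusted p = 0.631).

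Among 32 tested heat shock factors and Hsp70 or Hsp90 co-chaperones outside the symbol rule, 2 were higher and 4 were lower. That is 18.8% of them, near the 18.0% of all genes tested. Cdc37, which loads kinases onto Hsp90, had a log2 fold change of -0.59 (adjusted p = 0.000209), and Fkbp4, the immunophilin of Hsp90 with steroid receptors, of -0.61 (adjusted p = 0.000261). Sgta and Ptges3 (p23) were the other lower genes, and Bag6 and Ahsa2 the higher ones, named after their values were seen. With GC and length trends removed the counts were 4 and 7 (16.3% of all genes called), and DESeq2 gave 4 and 7 as well (2562 of all 12719 genes called). Immediate early genes, which respond to handling and stimulation, were tested for 12 of 14: 1 was higher (Jund) and 2 were lower (Egr2 and Jun, log2 fold changes -1.12 and -1.18). Of the 16 proliferation genes, 3 were higher (Mki67, Top2a and Cenpe) and 2 lower (Mcm5 and Bub1). These calls are 25% of the tested immediate early genes and 31.2% of the proliferation genes, beside 18.0% of all genes tested.

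Calls were also counted by exon length. In the shortest quartile of the tested genes, with at most 2134 exon bases, 4 of 11 members were called, all of them higher, beside 11.9% of all genes called higher and 6.67% called lower there, with a median log2 fold change of 0.35 beside 0.11 for all genes of that quartile. In the next quartile, 5 of 20 members were called, all of them lower, beside 6.74% of all genes called higher and 12% called lower there. The third quartile held 2 higher and 2 lower of 24 members (6.74% and 10.2% of all genes), and the longest held 2 called of 16, both higher (11.2% of all genes higher and 6.45% lower). With 11 to 24 members a quartile these counts are small, and whether they differ from those of all genes was not tested. The median exon length was 2982 bases for the 8 higher and 2975 for the 7 lower genes. Across the 71 members, Spearman's rho of log2 fold change with exon length was -0.16, beside -0.0095 over all genes, as a description over genes that share libraries. With GC and length trends removed, the median of the prefoldin genes was 0.36 with 3 still higher, and that of the CCT genes -0.27 with Cct5 still lower.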

How the data were processed

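The authors aligned reads with HISAT2 2.2.1 to GRCm38 (mm10) and counted them per gene with HTSeq; they deposited raw counts and TPM values. The annotation release, strand setting and age of the mice are not given in the sources used here. Here, the 2 repeats of a mouse were summed and 3 mice per label compared with edgeR 4.0.16 in R 4.3.3 (filterByExpr, TMM, quasi-likelihood test, Benjamini-Hochberg threshold 0.05). TPM values, as deposited, served only as an alternative (limma 3.58.1, log2(TPM + 1)). Within each library the count divided by the TPM value followed gene span including introns (Spearman's rho across genes 0.951 to 0.954) more closely than exon length (0.593 to 0.610), so these TPM are not levels per exon length. Other alternatives were DESeq2 1.42.0, voom with the mouse as random effect, single repeats, other scalings, no filter, the replicate number as a block, GC and length trends removed (mgcv 1.9.3) and leaving out mice or libraries. The edgeR, DESeq2, voom and limma fits, the block and the trend removal were tested on simulated data. Coordinates and exon lengths came from GENCODE vM21, near-identical copies from blastn 2.17.0 (at least 95% over 300 bases). Named were all called members, the Hsp90, CCT and prefoldin genes, textbook members and the highest of each family. Members and lists were chosen with earlier results of these data known. Counting errors assume independent reads, and without molecular identifiers reads are not independent molecules.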

Additional observations from a re-analysis of the deposited data

Results flagged for a closer look

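For 9 of 96 groups of 6 libraries, a library stood apart from the other 5 by Dixon's criterion, where chance gives about 4.8. The first repeat of mouse 3 labelled BCL6-insufficient held 4490 CPM summed over the Hsp90 genes (median of the others 3490), with 1160 CPM of Hsp90aa1 (875) and 2990 of Hsp90ab1 (2230). The first repeat of mouse 2 of that label was low in Dnajc1, at 53.1 CPM (67.3), and in Hspa1b, at 0.145 CPM (1.32). Among libraries labelled wild-type, the second repeat of mouse 2 was low in the summed DNAJA genes, at 368 CPM (436), and in Dnaja1, at 192 CPM (218). Hspa1a was high in the second repeat of mouse 3, at 7.45 CPM (1), and Hspa1b in the first repeat of mouse 1, at 1.86 CPM (0.181).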

How the results depend on the processing

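Beside 8 higher and 7 lower chaperone genes (18.0% of all genes called), DESeq2 called 9 and 10. It called 2562 of all 12719 genes, or 21.4% of those to which it gave an adjusted p. Voom called 8 and 12 (21.3% of all genes), the first repeat alone 4 and 1 (9.38%), the second 7 and 5 (12.4%), and upper-quartile scaling 8 and 5 (18.0%, losing Dnajb1 and Hspd1). With log2(TPM + 1) and log2(TPM + 0.1) they were 1 and 4 each (10.3% and 9.92%), and with log2(TPM + 1) over all genes 1 and 0 (0.987%). The median over all genes was -0.11 with log2(TPM + 0.1), beside 0.011. Leaving out each mouse gave 4 to 8 higher and 3 to 6 lower (10.8% to 14.9% of all genes). Calls lost were Dnajb1 and Dnajb2 whichever mouse was left out, Dnajc1 without all but mouse 2 labelled BCL6-insufficient, and, without part of them, Pfdn2, Hspa2, Hspd1, Hspe1 and Dnajc19. Their log2 fold changes kept their sign. They ran from -2.38 to -1.86 for Dnajb2, 0.36 to 0.44 for Dnajc1, -1.79 to -1.16 for Hspa2 and -0.45 to -0.22 for Hspd1. For Hspe1 they ran from 0.31 to 0.61 and for Dnajc19 from 0.38 to 0.49. The same replicate number did not pair the mice (correlations of same-numbered deviations from -0.028 to 0.085), and with it as a block 9 were higher and 11 lower (20.3% of all genes), with Cct3, Cct4, Cct7, Hsp90aa1 and Hspa8 gained (adjusted p from 0.0249 to 0.0360), or 8 and 11 with GC and length trends removed as well. Added after seeing the data, fits without the library of highest B cell marker sum (mouse 3 labelled wild-type, repeat 2) gave 7 and 5 (losing Dnajb1, at a log2 fold change of -0.34 beside -0.31, and Hspe1, at 0.37 beside 0.50, with Dnajb2 not tested), without that of highest immediate early sum (mouse 2 labelled wild-type, repeat 1) 7 and 8 (losing Dnajc1, gaining Dnajc7), and without the one high in Hsp90 8 and 7 (losing Dnajb2, gaining Cct4). Among the genes given with values above, log2 fold changes reversed for Dnajb11 (0.050), Dnajb6 (0.031), Dnajc3 (0.085), Hsp90ab1 (-0.13) and Hspa1a (-0.11) in the second repeat; Dnajc3 (0.0079) with upper-quartile scaling; Dnajc9 (-0.041) and Hsp90ab1 (-0.033) with TPM; and, over the fits leaving out a mouse, Dnajc9 (-0.0020 to 0.16), Dnajc3 (-0.078 to 0.020), Hsph1 (-0.23 to 0.030) and Hspa1a (-0.18 to 1.74). None of these genes was called in edgeR's test of all 6 mice. The cause was not tested.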
